A study of Saccharomyces cerevisiae with 8 samples.

Results

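Budding yeast lacking both MSP1 and PEX19 (W303 msp1Δ pex19Δ) was set against wild-type W303 by RNA-seq and by ribosome profiling, which counts ribosome-protected fragments (RPF) and so reads the mRNA that ribosomes occupy. The comparison used 4 of the series' 8 libraries, 1 RNA-seq and 1 RPF library of each genotype. It covered the 3737 of 6668 listed genes with a mean of at least 50 reads over the 4 genotypes in both assays; the other 2931 fell under that minimum. Strains lacking MSP1 alone or PEX19 alone, in the same background, are shown beside the double deletion where they place a value. By its title the series concerns mitochondrial dysfunction in Zellweger spectrum disorder, a group of inherited defects of peroxisome formation. Glycerol and ethanol, which have to be respired, were the carbon source of all cultures. Each genotype stands for 1 library per assay, and the labels do not say from how many clones.

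Msp1 is an AAA ATPase anchored in the outer membrane of mitochondria and in peroxisomes, and it pulls mislocalised tail-anchored proteins out of the membrane. Pex19 is the cytosolic chaperone and import receptor of peroxisomal membrane proteins, and yeast without it lacks functional peroxisomes. Peroxisomal membrane proteins with no peroxisome to go to can end up in the mitochondrial membrane, where Msp1 can act on them.

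With 1 library per genotype and assay there was no spread between replicates, so no difference below has a replicate check and no test was run. RNA-seq libraries held 4936802 reads in the double deletion and 5367091 in wild type, and RPF libraries 1685722 and 2133432. The RPF library of the msp1 deletion, shown beside them, was the shallowest of the series at 1101458 reads, and its log2 ratios to wild type spread more widely over genes (scaled median absolute deviation 0.43) than those of any other RNA or RPF library. Levels are given as reads per 1000000 (RPM) after TMM scaling within an assay, and differences as log2 ratios, double deletion over wild type. Brackets hold the 95% interval of a ratio, which covers counting error only, since there was 1 library per side. Reads copied by PCR are not independent molecules, so the interval may be too narrow even for counting error. Values are relative within an assay: fewer cells with a transcript and less of it per cell cannot be told apart. Both deleted genes were listed at the file minimum of 1 read in the double deletion, and whether a listed 1 stands for a read or for none is not stated. MSP1 (YGR028W, chromosome VII, 542203 to 543291, plus strand, 1 coding exon) was listed at 1 in RNA-seq and 1 in RPF of the double deletion, against 731 and 122 in wild type. With 3 reads taken as the limit for a gene without reads, it was at least 223.91-fold lower in RNA-seq and at least 32.65-fold lower in RPF. PEX19 (YDL065C, chromosome IV, 336249 to 337277, minus strand, 1 coding exon) was listed at 1 in either assay of the double deletion, against 387 and 216 in wild type, which is at least 118.54-fold and 57.8-fold lower.

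The double deletion stayed close to wild type over most genes. The scaled median absolute deviation of the log2 ratio was 0.191 in RNA-seq and 0.223 in RPF, and 95% of genes lay between −0.50 and 0.46 in RNA-seq and between −0.49 and 0.54 in RPF. A gene was called when at least 2-fold apart. In RNA-seq 8 of 3737 genes were called higher (0.214%) and 9 lower (0.241%). In RPF 3 were called higher (0.0803%) and 9 lower (0.241%). In both assays together 1 gene was called higher (0.0268%), IMD2, and 6 lower (0.161%), namely MSP1, PEX19, BIO2, BIO4, FET3 and NCA3. At a limit of 1.5-fold, added after the data were seen, 5 genes were higher in both assays (0.134%) and 13 lower (0.348%), and 1 was lower in RNA-seq and higher in RPF. Without MSP1 and PEX19, the RNA-seq and RPF ratios correlated across 3735 genes with a Pearson r of 0.215 and a Spearman rho of 0.173. These genes share the same 4 libraries and are not independent replicates. The RNA-seq ratio was weakly related to coding length (Spearman 0.13), and the RPF ratio less so (−0.069).

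**Figure D1:**
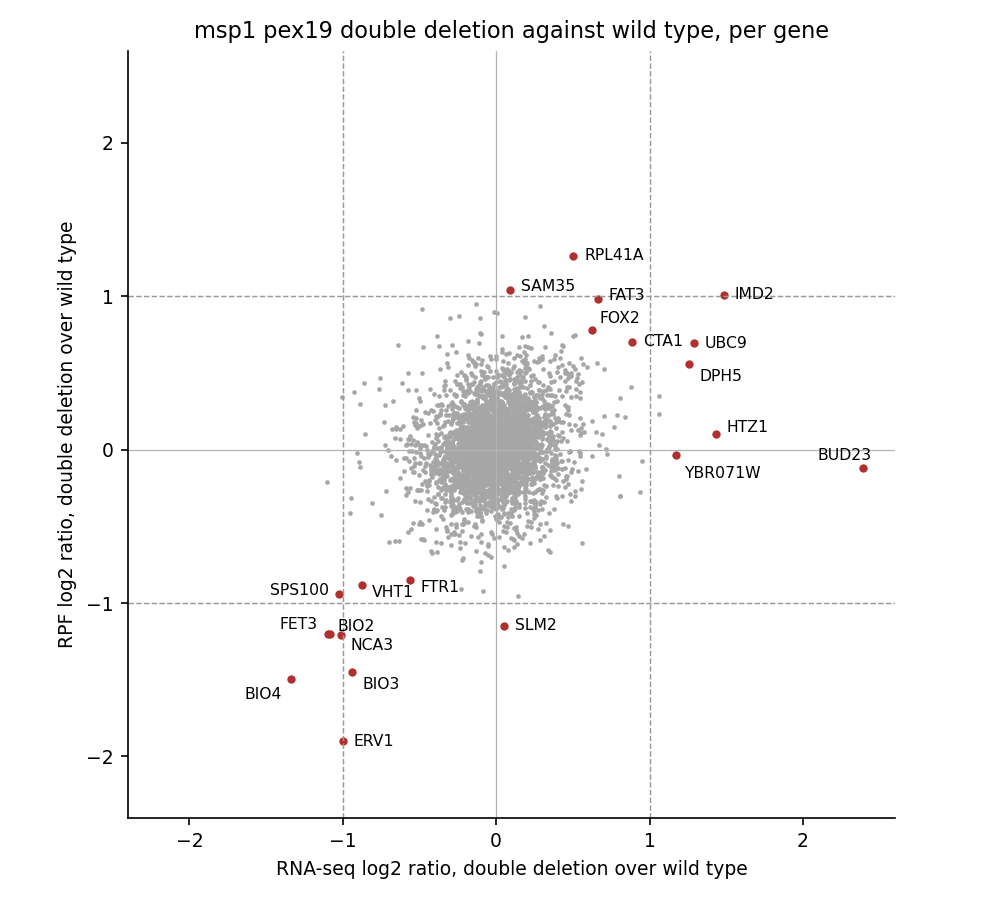
Log2 ratio of RNA-seq (horizontal) and of RPF (vertical), double deletion over wild type, 1 point per gene; dashed lines mark the 2-fold limits. Most genes crowd around 0, with BIO4, BIO2, FET3 and NCA3 past both limits at the lower left and IMD2 past both at the upper right.

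At either deleted locus 1 neighbouring gene stood apart from wild type, ERV1 beside MSP1 and UBC9 beside PEX19. ERV1 (YGR029W, chromosome VII, 543553 to 544205, plus strand, 2 coding exons), an essential sulfhydryl oxidase of the mitochondrial intermembrane space, lies downstream of MSP1 on the same strand, across a gap of 261 nt. UBC9 (YDL064W, chromosome IV, 337487 to 338070, plus strand, 2 coding exons), the SUMO-conjugating enzyme, is separated from the start of PEX19 by 209 nt and is read the other way. Both upstream windows are shown because they border or contain sequence of a deleted gene; they run from 250 bases before to 50 bases after the start of the gene, 5′ to 3′ on the gene's own strand, from the RefSeq R64 reference. In the ERV1 window (chrVII:543303-543602, plus strand) capitals mark the start of its own coding sequence, and in the UBC9 window (chrIV:337237-337536, plus strand) capitals mark PEX19 coding sequence on the opposite strand:
ERV1: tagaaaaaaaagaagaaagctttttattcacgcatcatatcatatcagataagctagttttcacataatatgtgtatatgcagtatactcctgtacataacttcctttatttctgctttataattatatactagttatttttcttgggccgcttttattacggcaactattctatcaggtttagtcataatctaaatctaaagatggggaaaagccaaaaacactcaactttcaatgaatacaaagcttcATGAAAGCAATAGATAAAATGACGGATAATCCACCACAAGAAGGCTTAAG
UBC9: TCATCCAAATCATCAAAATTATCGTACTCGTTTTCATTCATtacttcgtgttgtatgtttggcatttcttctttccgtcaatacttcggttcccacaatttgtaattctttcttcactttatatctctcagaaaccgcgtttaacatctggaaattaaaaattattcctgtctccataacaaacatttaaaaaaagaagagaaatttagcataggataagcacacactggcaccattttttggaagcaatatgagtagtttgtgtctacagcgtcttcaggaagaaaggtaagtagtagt

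ERV1 RNA stood at 26.3 RPM in the double deletion, 32.2 in the msp1 deletion, 70.3 in the pex19 deletion and 52.7 in wild type. Its RPF stood at 21.2 in the double deletion, 30.5 in the msp1 deletion, 57.4 in the pex19 deletion and 80.5 in wild type. Both strains without MSP1 were thus below both strains with it, in either assay. The ratio of the double deletion to wild type was −0.999 (−1.31 to −0.70) in RNA-seq, just short of the 2-fold limit, and −1.90 (−2.50 to −1.40) in RPF, from 35 against 166 reads.

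UBC9 RNA stood at 105.8 RPM in the double deletion, 37.7 in the msp1 deletion, 133.6 in the pex19 deletion and 43.2 in wild type, and its RPF at 112, 65.6, 127 and 68.9 in the same strains. Both strains without PEX19 were above both strains with it, in either assay. The ratio of the double deletion to wild type was 1.29 (1.07 to 1.52) in RNA-seq and 0.69 (0.38 to 1.02) in RPF. On the other side of PEX19, IDP1, mitochondrial isocitrate dehydrogenase, was at 0.05 and −0.03, and COX9, a cytochrome c oxidase subunit, at −0.11 and 0.14. POP6, SYO1, YGR027W-A and YGR027W-B, the remaining neighbours, were under the count minimum. The part of the deletion construct in the levels of ERV1 and UBC9 was not tested.

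Genes for making and taking up biotin were lower in the double deletion. Biotin is the cofactor of carboxylases such as acetyl-CoA carboxylase and pyruvate carboxylase, and yeast makes it from imported precursors or takes it up through Vht1. Of 7 listed genes of biotin synthesis and uptake 5 passed the count minimum. Of these, 1 was higher than wild type in RNA-seq and 0 in RPF, and the medians were −0.94 and −1.20, while 47.7% of all measured genes had an RNA-seq level above wild type and 51.7% an RPF level above it. At the 2-fold limit 2 of the 5 were lower in both assays, against 0.161% of all measured genes; the list was drawn up with this result known, so its count is no separate evidence of its direction.

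The upstream windows of 2 of these genes, BIO2 and VHT1, are shown because both genes were low in both assays. They are not neighbours on the chromosome. BIO2 lies at chrVII:1064891-1065190 and VHT1 at chrVII:619809-620108, both on the minus strand of R64, and capitals mark the first 50 bases of coding sequence:
BIO2: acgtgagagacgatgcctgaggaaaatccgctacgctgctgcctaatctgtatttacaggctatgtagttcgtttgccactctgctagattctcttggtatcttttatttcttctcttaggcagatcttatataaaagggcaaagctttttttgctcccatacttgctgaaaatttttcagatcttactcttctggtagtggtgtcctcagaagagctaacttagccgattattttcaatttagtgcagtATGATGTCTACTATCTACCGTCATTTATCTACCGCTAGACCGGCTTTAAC
VHT1: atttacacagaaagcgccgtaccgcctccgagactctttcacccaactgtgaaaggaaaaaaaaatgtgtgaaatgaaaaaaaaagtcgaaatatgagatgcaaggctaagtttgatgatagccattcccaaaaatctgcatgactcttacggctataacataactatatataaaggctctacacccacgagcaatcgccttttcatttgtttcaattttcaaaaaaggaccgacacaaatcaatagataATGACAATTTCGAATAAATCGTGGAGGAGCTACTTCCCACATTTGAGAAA

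BIO4 (YNR057C, chromosome XIV, 733356 to 734069, minus strand, 1 coding exon) encodes dethiobiotin synthetase. Its RNA stood at 41.1 RPM in the double deletion, 88.7 in the msp1 deletion, 70.3 in the pex19 deletion and 104.2 in wild type, and its RPF at 84.0, 181, 148 and 238 in the same strains. The double deletion was lowest and wild type highest in either assay, with ratios of −1.34 (−1.58 to −1.11) and −1.49 (−1.78 to −1.23).

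BIO2 (YGR286C, chromosome VII, 1063813 to 1064940, minus strand, 1 coding exon) encodes biotin synthase, the last enzyme of the pathway and an iron-sulfur protein. Its RNA stood at 108.6 RPM in the double deletion, 156 in the msp1 deletion, 166 in the pex19 deletion and 233 in wild type, and its RPF at 93.1, 189, 162 and 215. The order was the same as for BIO4 at both ends, with ratios of −1.10 (−1.25 to −0.95) in RNA-seq and −1.20 (−1.48 to −0.94) in RPF.

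BIO3 (YNR058W, chromosome XIV, 734291 to 735733, plus strand, 1 coding exon) encodes the diaminopelargonic acid aminotransferase. Its RNA stood at 80.3 RPM in the double deletion, 141 in the msp1 deletion, 156 in the pex19 deletion and 154 in wild type, and its RPF at 37.5, 114, 77.1 and 103. The double deletion was again lowest, while the other 3 genotypes lay close together in RNA-seq. The ratios were −0.94 (−1.12 to −0.77) and −1.45 (−1.90 to −1.05), so the RNA-seq value was just short of 2-fold. BIO3 points away from BIO4 across a gap of 221 nt, and BIO5 (731618 to 733303, minus strand) lies on the other side of BIO4. These biotin genes thus sit together and are not separate loci.

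VHT1 (YGR065C, chromosome VII, 618077 to 619858, minus strand, 1 coding exon) encodes the plasma membrane biotin transporter and was the most highly read gene of the list. Its RNA stood at 334 RPM in the double deletion, 476 in the msp1 deletion, 514 in the pex19 deletion and 614 in wild type, and its RPF at 234, 377, 327 and 432. The ratio was −0.88 in both assays (−0.96 to −0.79 in RNA-seq, −1.06 to −0.71 in RPF). BIO5, the importer of a biotin precursor, was under the count minimum in RPF. It had 72 RNA-seq reads in the double deletion, 178 in the msp1 deletion, 232 in the pex19 deletion and 206 in wild type, a ratio of −1.38 (−1.80 to −1.001), and 6 against 33 RPF reads in wild type. The enzyme that attaches biotin to its targets, Bpl1, did not share the low levels: BPL1 was at 0.12 (−0.05 to 0.29) and −0.03 (−0.49 to 0.41).

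**Figure D2:**
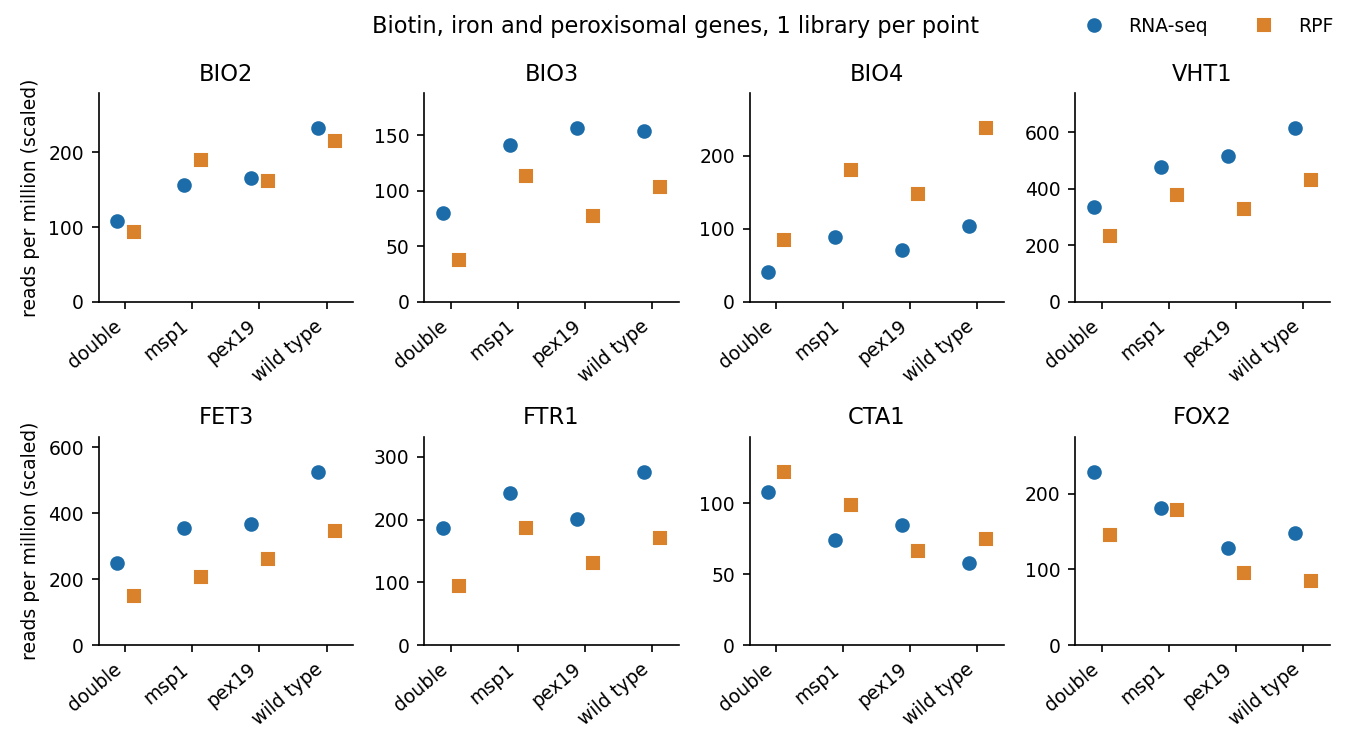
TMM-scaled RPM (vertical, linear, from 0) of 8 genes in the double deletion, msp1 deletion, pex19 deletion and wild type; circles are RNA-seq and squares RPF, 1 library each. In BIO2, BIO4, VHT1 and FET3 the double deletion was lowest and wild type highest in both assays, and in CTA1 the double deletion was highest.

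The high-affinity iron uptake pair was lower as well, while most measured members of its regulon lay near wild type. Fet3 is the multicopper ferroxidase and Ftr1 the permease that together carry iron across the plasma membrane; the transcription factor Aft1 drives both genes when iron is short. FET3 (YMR058W, chromosome XIII, 388822 to 390732, plus strand, 1 coding exon) stood at 248 RNA-seq RPM in the double deletion, 356 in the msp1 deletion, 368 in the pex19 deletion and 526 in wild type. Its RPF stood at 150, 206, 261 and 345 in the same strains. The double deletion was lowest and wild type highest in both assays, with ratios of −1.08 (−1.18 to −0.99) and −1.20 (−1.42 to −0.99).

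FTR1 (YER145C, chromosome V, 460526 to 461740, minus strand, 1 coding exon) stood at 187 RNA-seq RPM in the double deletion, 243 in the msp1 deletion, 201 in the pex19 deletion and 276 in wild type. Its RPF stood at 94.3, 187, 131 and 170 in the same strains. It was lowest in the double deletion in both assays, by ratios of −0.56 (−0.68 to −0.44) and −0.85 (−1.13 to −0.58). Its upstream window (chrV:461691-461990, minus strand, R64) is shown because it holds the core of the Aft1 site, searched as TGCACCC on both strands and marked in capitals 175 bases before the start codon:
FTR1: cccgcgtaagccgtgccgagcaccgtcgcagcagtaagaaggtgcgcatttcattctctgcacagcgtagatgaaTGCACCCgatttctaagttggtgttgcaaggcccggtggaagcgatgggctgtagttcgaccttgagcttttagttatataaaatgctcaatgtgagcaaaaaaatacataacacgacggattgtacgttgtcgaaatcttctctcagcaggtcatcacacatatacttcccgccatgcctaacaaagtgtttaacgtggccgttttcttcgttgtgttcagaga
That core was found in the windows of 4 of 14 measured genes of the Aft1 list (28.6%) and of 1.15% of measured genes. It was in 0 of the 5 windows of measured biotin genes. The window of FET3 (chrXIII:388572-388871, plus strand) held no whole match, but it opens with GCACCC, the core without its first base. A match that crosses the edge of a window was not counted, so a site at that edge was not tested. Only the exact core was searched, and variants of it were not looked for.

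Of 30 listed genes of the Aft1 regulon 14 passed the count minimum, with 4 above wild type in RNA-seq and 6 in RPF and medians of −0.03 and −0.05. FET3, FTR1 and VHT1, which is also on this list, were low in both assays, and the lowest value of any other member was the −0.22 of CCC2 in RPF. CTH1, an mRNA-binding protein that acts in iron shortage, was instead higher, at 0.70 (0.49 to 0.92) and 0.52 (0.02 to 1.05). CCC2, the transporter that supplies copper to Fet3, was at −0.03 in RNA-seq, and the copper chaperone gene ATX1 was at 0.38 and −0.10. The FIT and ARN genes of siderophore uptake and the FRE reductase genes were under the count minimum. Genes of iron-sulfur cluster assembly, 14 of 18 measured, had medians of −0.07 and 0.07, and heme synthesis genes, 9 of 10 measured, 0.04 and −0.07. Of the heme genes HEM15, ferrochelatase, was at 0.40 and −0.12, HEM13 at 0.16 and −0.22, COX10 at 0.00 and 0.26 and COX15 at 0.11 and 0.16. HEM1, HEM2, HEM3, HEM12 and HEM14 lay between −0.17 and 0.11 in both assays.

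Other genes low in both assays had less in common. The 15 lowest genes, ranked by the smaller of the RNA-seq and RPF ratios in size, were MSP1, PEX19, ERV1, BIO2, BIO3, BIO4, VHT1, FET3, FTR1, NCA3, SPS100, GRE1, ACF4, DBP2 and HPT1. NCA3 (YJL116C), a SUN family protein, stood at 32.5 RNA-seq RPM in the double deletion, 46.4 in the msp1 deletion, 77.5 in the pex19 deletion and 65.7 in wild type. In RPF it stood at 59.2, 78.5, 189 and 137, and its ratios were −1.01 (−1.29 to −0.74) and −1.21 (−1.56 to −0.88). As with ERV1, both strains without MSP1 were below both strains with it.

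SPS100 (YHR139C), a spore wall protein, was at −1.02 and −0.94, from 104 against 231 RNA-seq reads and 49 against 118 RPF reads in wild type, and an unstranded count would share reads with SUT169 on the other strand. In the msp1 deletion SPS100 was instead above wild type, at 0.52 and 1.13, and in the pex19 deletion it was below it, at −0.80 and −1.58. GRE1, a stress-induced hydrophilin gene, was at −0.70 and −0.60 in the double deletion, at 1.15 and 0.64 in the msp1 deletion and at −0.89 and −0.48 in the pex19 deletion, against the same wild-type libraries. Both strains without PEX19 were thus below wild type for SPS100 and GRE1. DBP2, a DEAD-box RNA helicase, was at −0.66 and −0.59, HPT1, the hypoxanthine-guanine phosphoribosyltransferase of purine salvage, at −0.58 and −0.54, and ACF4 at −0.64 and −0.60. The double deletion was lowest of the 4 genotypes in both assays for 8 of these 15 genes and for 7.01% of all measured genes. It was lowest with wild type highest for 4 of them, BIO2, BIO4, VHT1 and FET3, and for 14 of all 3737 genes (0.375%). The 15 were picked for being low against wild type, so this order is a description.

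Peroxisomal enzyme genes were moderately higher in the double deletion. Yeast oxidises fatty acids in peroxisomes through the acyl-CoA oxidase Pox1, the multifunctional enzyme Fox2 and the thiolase Pot1, and the catalase Cta1 removes the peroxide made on the way. Of 22 listed genes of β-oxidation and matrix enzymes 16 passed the count minimum, of which 13 had a higher RNA-seq level and 12 a higher RPF level, with medians of 0.15 and 0.34. Of the 16, 10 were higher in both assays, against 27.9% of all measured genes, and 0 were 2-fold apart. Against the same wild-type libraries, this list's medians without MSP1 alone were 0.14 and 0.22, and without PEX19 alone 0.19 and 0.08, so its RNA-seq median was about as high in either single deletion.

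CTA1 (YDR256C, chromosome IV, 968133 to 969680, minus strand, 1 coding exon) stood at 107.6 RNA-seq RPM in the double deletion, 74.0 in the msp1 deletion, 84.9 in the pex19 deletion and 58.1 in wild type. RPF levels in the same order of strains were 122, 98.8, 66.3 and 74.7. The double deletion was highest in both assays, with ratios of 0.89 (0.69 to 1.09) and 0.70 (0.40 to 1.02).

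FOX2 (YKR009C, chromosome XI, 454352 to 457054, minus strand, 1 coding exon) stood at 229 RNA-seq RPM in the double deletion, 181 in the msp1 deletion, 128 in the pex19 deletion and 149 in wild type. RPF levels in that order were 146, 179, 95.01 and 84.4, highest in the msp1 deletion. The ratios of the double deletion to wild type were 0.62 (0.49 to 0.76) and 0.78 (0.50 to 1.08).

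POX1 was at 0.55 and 0.38 and POT1 at 0.31 and 0.52, so all 3 enzymes of the core cycle were above wild type in both assays. FAA2, the peroxisomal fatty acyl-CoA synthetase, was at 0.30 and 0.61 and CIT2, the peroxisomal citrate synthase, at 0.33 and 0.36. FAT3, needed for fatty acid uptake, was at 0.66 (0.46 to 0.87) and 0.98 (0.57 to 1.42). By the mean of both ratios the lowest of the list were PNC1, the nicotinamidase, at −0.18 and −0.21 and GPD1, a glycerol-3-phosphate dehydrogenase, at 0.00 and −0.21. PCD1, a diphosphatase, was lowest in RNA-seq at −0.29 and stood at 0.31 in RPF, and TES1, an acyl-CoA thioesterase, was at −0.10 and 0.39.

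The windows of CTA1 (chrIV:969631-969930) and FOX2 (chrXI:457005-457304), both on the minus strand of R64, are shown because they hold the conserved core of the oleate response element bound by Oaf1 and Pip2. It was searched as CGGNNNTNA on both strands, and capitals mark it, in CTA1 once on either strand:
CTA1: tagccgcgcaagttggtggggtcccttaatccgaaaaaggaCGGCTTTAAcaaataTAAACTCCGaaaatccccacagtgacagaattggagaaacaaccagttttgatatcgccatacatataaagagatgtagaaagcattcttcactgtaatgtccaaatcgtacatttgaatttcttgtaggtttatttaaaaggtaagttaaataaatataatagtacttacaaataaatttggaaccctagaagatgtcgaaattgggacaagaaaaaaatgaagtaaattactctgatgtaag
FOX2: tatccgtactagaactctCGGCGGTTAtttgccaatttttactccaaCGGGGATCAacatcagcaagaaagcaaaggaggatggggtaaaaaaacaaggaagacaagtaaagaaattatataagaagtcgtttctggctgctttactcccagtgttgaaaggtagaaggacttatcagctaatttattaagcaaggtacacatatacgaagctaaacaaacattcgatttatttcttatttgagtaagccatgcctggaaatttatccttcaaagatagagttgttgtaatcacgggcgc
The pattern is short and common: it was found in the windows of 7 of the 16 measured peroxisomal enzyme genes (43.8%) and of 22.6% of measured genes. It was found in 7 of the 15 genes highest in both assays (46.7%) and in 2 of the 15 lowest (13.3%), BIO2 and VHT1. Both sets were ranked on these same data, so these shares are a description. The BIO2 match lies in coding sequence, and neither match is marked in the windows shown above. Shares differed among lists, with 2 of 5 windows of biotin genes (40.0%), 6 of 11 of histone genes (54.5%) and 1 of 19 of glycolysis genes (5.26%).

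Peroxins and peroxisomal membrane proteins include the proteins that Pex19 delivers. Of 34 listed genes 14 passed the count minimum, with 8 above wild type in RNA-seq and 10 in RPF and medians of 0.12 and 0.23. PEX15, the tail-anchored peroxisomal membrane protein that Msp1 removes when it is misplaced, was at 0.19 and 0.59, its RPF value from 61 against 50 reads. PEX3, the membrane receptor of Pex19, was at 0.13 and 0.18. PEX11, which acts in peroxisome division, was at 0.24 and −0.19, PEX30, of the endoplasmic reticulum, at 0.10 and 0.51, and ANT1, the peroxisomal adenine nucleotide carrier, at −0.12 and −0.57. The core of the oleate response element was in 10 of these 14 windows (71.4%).

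**Figure D3:**
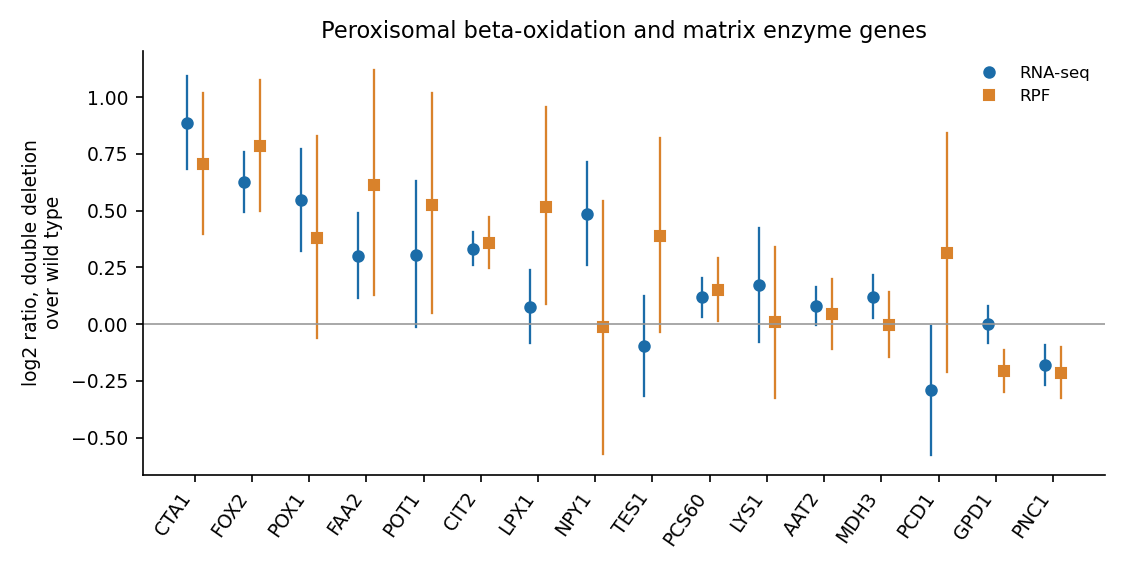
Log2 ratio, double deletion over wild type, with 95% counting intervals, of the 16 measured peroxisomal enzyme genes; circles are RNA-seq and squares RPF. CTA1 (0.89 and 0.70), FOX2 (0.62 and 0.78) and CIT2 (0.33 and 0.36) were among the genes with intervals above 0 in both assays, while PNC1 was at −0.18 and −0.21.

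Genes of the glyoxylate cycle and gluconeogenesis, which turn acetyl units into sugar, were slightly higher. Of 16, 14 had a higher RNA-seq level and 13 a higher RPF level, with medians of 0.16 and 0.12. The acetyl-CoA synthetase ACS1 was at 0.52 and 0.39, the acetate transporter ADY2 at 0.35 and 0.58, the carnitine acetyltransferase CAT2 at 0.35 and 0.44, and isocitrate lyase, ICL1, at 0.18 and 0.16. Set against the same wild-type libraries, the msp1 deletion had medians of 0.11 and 0.19 and the pex19 deletion of 0.36 and 0.49. Among TCA cycle genes CIT3, a mitochondrial citrate and methylcitrate synthase, was at 0.50 (0.34 to 0.67) and 0.74 (0.41 to 1.08), while the medians of the 18 measured genes were 0.01 and 0.04.

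IMD2 (YHR216W, chromosome VIII, 554396 to 555967, plus strand, 1 coding exon), an IMP dehydrogenase of guanine nucleotide synthesis, was the gene past 2-fold higher in both assays. Its RNA stood at 40.5 RPM in the double deletion, 48.5 in the msp1 deletion, 13.1 in the pex19 deletion and 14.4 in wild type, and its RPF at 51.4, 91.4, 18.8 and 25.2. Both strains without MSP1 were above both strains with it. The ratios were 1.48 (1.11 to 1.89) and 1.01 (0.51 to 1.55), the RPF value from 85 against 52 reads. The call in RPF was lost with TMM over all listed genes (0.94) and with a pseudocount of 5 (0.95), and IMD2 was below a count minimum of 200. IMD1, a closely similar pseudogene, was not covered by the search for near copies, and reads the 2 might share make the level of IMD2 uncertain. The other IMP dehydrogenase genes were not higher together with it, with IMD3 at −0.01 and −0.06 and IMD4 at 0.12 and −0.26.

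The 15 genes highest in both assays were IMD2, UBC9, CTA1, FAT3, FOX2, ZIM17, ESC8, DPH5, MPH1, GPN2, CTH1, VPS60, YNR061C, CIT3 and RPL41A. DPH5 (YLR172C), an enzyme of diphthamide synthesis on elongation factor 2, stood at 293 RNA-seq RPM in the double deletion, 126 in the msp1 deletion, 117 in the pex19 deletion and 122 in wild type. RPF levels in that order were 177, 112, 119 and 120, and the ratios were 1.26 (1.12 to 1.39) and 0.56 (0.31 to 0.81). The other 3 genotypes lay close together in both assays.

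RPL41A, a ribosomal protein of a few residues, was at 0.50 (0.26 to 0.75) and 1.26 (0.81 to 1.76), from 113 against 58 RPF reads. Its paralogue RPL41B is so alike that reads may be shared, and the gene is too short for the search for near copies, so its value is uncertain. ZIM17, a partner of mitochondrial Hsp70, was at 0.66 and 0.56, and the helicase gene MPH1 at 0.55 and 0.60. In RPF alone APC1, the largest subunit of the anaphase-promoting complex, was at 0.95 (0.54 to 1.38) with RNA-seq at −0.13, and YBR230W-A at 0.87 (0.52 to 1.24) with RNA-seq at −0.24. The double deletion was highest of the 4 genotypes in both assays for 7 of these 15 genes and for 6.34% of all measured genes. These 15 were picked for being high against wild type, which favours that order, so it too is a description.

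Translational efficiency, the RPF ratio minus the RNA-seq ratio on the log2 scale, was 2-fold higher for 19 genes (0.508%) and lower for 11 (0.294%). MSP1 and PEX19 are among the 19, but their values rest on a listed 1 that may stand for no read, and their intervals span 0 (−1.27 to 6.74 and −3.00 to 5.01). In the 5 genes with the lowest efficiency by interval bound, RNA was higher while RPF stayed near wild type. SLM2, not among these 5, was instead near wild type in RNA-seq and lower in RPF, with its values given below. BUD23 (YCR047C), a methyltransferase of 18S rRNA, stood at 181 RNA-seq RPM in the double deletion, 31.8 in the msp1 deletion, 39.2 in the pex19 deletion and 34.3 in wild type. In RPF the same strains stood at 37.5, 48.9, 42.1 and 40.8. The RNA-seq ratio was 2.39 (2.17 to 2.64), the RPF ratio −0.12 (−0.62 to 0.37) and the efficiency −2.51 (−3.04 to −1.99).

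HTZ1 (YOL012C), the histone variant H2A.Z, stood at 734 RNA-seq RPM in the double deletion, 430 in the msp1 deletion, 351 in the pex19 deletion and 272 in wild type, and its RPF at 143, 124, 125 and 133. Its efficiency was −1.33 (−1.60 to −1.06). IFM1, the mitochondrial translation initiation factor 2, was at 0.94 in RNA-seq and −0.27 in RPF, YBR071W at 1.18 and −0.03, and RRP36, of rRNA processing, at 0.81 and −0.30. Of the other histone genes CSE4, the centromeric histone H3, was at 0.50 and 0.55, and the 11 had medians of −0.11 and 0.10.

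In the 5 genes with the highest efficiency by interval bound, RNA was lower and the RPF ratio above 0. The RPF intervals of YPT6 (−0.07 to 0.77) and PKR1 (−0.13 to 0.89) include 0, so higher RPF is not shown for them. CKS1, a subunit of the cyclin-dependent kinase Cdc28, had 154 RNA-seq reads in the double deletion and 235 in wild type, and 104 and 68 RPF reads. Its RNA-seq ratio was −0.49, its RPF ratio 0.92 and its efficiency 1.40 (0.87 to 1.93). YPT6, a Rab GTPase, was at −1.01 and 0.34 and overlaps VPS63, so its value is uncertain. RPC11, a subunit of RNA polymerase III, was at −0.64 and 0.68, PKR1, an assembly factor of the vacuolar ATPase, at −0.93 and 0.38, and RTC6, a mitochondrial ribosomal protein, at −0.76 and 0.40. Across genes efficiency was lower with longer coding sequence (Spearman −0.149). With the coding length trend removed, 13 genes in place of 19 were 2-fold higher in efficiency, and 13 in place of 11 lower. SAM35, of the sorting and assembly machinery of the outer mitochondrial membrane, was 1.04 (0.50 to 1.64) in RPF and 0.09 in RNA-seq, from 72 against 43 RPF reads; its RPF in the pex19 deletion was 1.11.

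**Figure D4:**
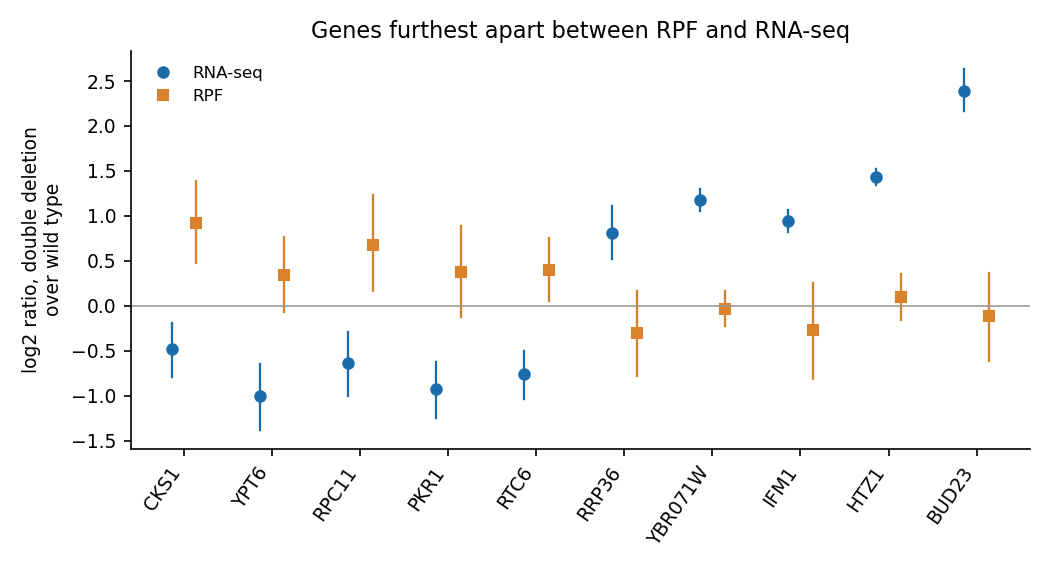
RNA-seq and RPF log2 ratios, double deletion over wild type, with 95% counting intervals, of the genes lowest and highest in translational efficiency by interval bound. BUD23 and HTZ1 were higher in RNA-seq (2.39 and 1.43) with RPF near 0, and CKS1 and RPC11 were lower in RNA-seq (−0.49 and −0.64) and higher in RPF (0.92 and 0.68).

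Mitochondrial genes were close to wild type as groups. Respiratory chain and ATP synthase genes, 44 of 45 measured, had medians of −0.02 and 0.05, with 18 higher in RNA-seq and 28 in RPF. The lowest by the mean of both ratios was CYC7, the hypoxic cytochrome c, at −0.58 and −0.28. Of 76 mitochondrial ribosomal protein genes 37 had a higher RNA-seq level and 53 a higher RPF level, with medians of −0.02 and 0.10. Protein import genes, 33 of 36 measured, had medians of 0.08 and 0.08, while those of chaperones and proteases of mitochondria, 21 of 26 measured, were 0.01 and 0.04. Among these proteases and chaperones MGR3, an adaptor of the i-AAA protease, was at 0.72 and −0.03, and MCX1, a matrix ClpX homologue, at −0.16 and −0.56. Retrograde response genes had medians of −0.03 and 0.00, with CIT2 the highest of the 11. The list mixes genes that answer to failing mitochondria with regulators of that answer, RTG1, RTG2, RTG3 and MKS1.

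The outer membrane of mitochondria has tail-anchored proteins of its own. All 6 listed genes were measured, 3 were higher in each assay, and the medians were −0.07 and 0.02. TOM5, a small subunit of the import pore, was at 0.19 and 0.62, TOM6 at 0.30 and 0.10, TOM7 at −0.38 and −0.24, TOM22 at −0.22 and −0.16, the fission adaptor FIS1 at −0.30 and 0.17 and the Miro GTPase GEM1 at 0.08 and −0.06. The GET pathway, which inserts tail-anchored proteins into the endoplasmic reticulum, had 6 of 6 genes measured with medians of −0.16 and 0.09. GET3, its targeting ATPase, was at 0.10 and 0.17, the membrane receptor genes GET1 at −0.17 and 0.01 and GET2 at −0.26 and −0.24, and GET4 at 0.11 and 0.31. MDY2 was at −0.14 and 0.31 and SGT2 at −0.26 and −0.03. Of the genes that answer to stalled mitochondrial import or to drugs, 4 were measured, at 0.15 and 0.38 (PDR1), 0.19 and −0.25 (PDR5), −0.09 and 0.12 (SNQ2) and −0.07 and 0.46 (YOR1).

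Genes of endoplasmic reticulum folding and the unfolded protein response were slightly higher, 12 of 16 in RNA-seq and 13 in RPF, with medians of 0.10 and 0.23. Loss of MSP1 alone gave this list medians of 0.14 and 0.38 against the same wild type, and loss of PEX19 alone −0.19 and −0.14. The nucleotide exchange factor SIL1 was at 0.48 and 0.41, the J-domain protein JEM1 at −0.04 and 0.61, and the Hsp70 KAR2 at 0.26 and 0.17. Lowest by the mean of both ratios were the J-domain protein gene SCJ1 at −0.20 and 0.00 and ERV2, a sulfhydryl oxidase gene, at −0.52 and 0.39, which overlaps IRC16 on the other strand. EUG1, a protein disulfide isomerase, was at 0.47 and −0.23. Genes of ER-associated degradation, 12 of 13 measured, had medians of 0.04 and 0.13. Of 26 Hsf1 targets and cytosolic chaperones 12 were higher in each assay, and of 34 proteasome genes 18 and 17.

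General stress genes driven by Msn2 and Msn4 were slightly lower. Of 32, 6 had a higher RNA-seq level and 3 a higher RPF level, with medians of −0.10 and −0.13. The cytosolic catalase CTT1 was at −0.54 and −0.48, the small heat shock protein HSP26 at −0.32 and −0.53 and the transketolase TKL2 at −0.48 and −0.48, while HSP12 was at 0.16 and 0.20. CTT1 and CTA1 thus lay on opposite sides of wild type. Against the same wild-type libraries, the list's medians without MSP1 alone were 0.17 and 0.21, and without PEX19 alone 0.05 and 0.21. The stress response element, searched as AGGGG on both strands, was in 21 of the 32 windows (65.6%) and in 23.8% of windows of measured genes.

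Genes for making ribosomes were slightly lower too. Of 137 cytosolic ribosomal protein genes 14 had a higher RNA-seq level and 34 a higher RPF level, with medians of −0.20 and −0.08. With the same wild type below the ratio, medians were −0.21 and −0.50 without MSP1 alone and 0.11 and −0.11 without PEX19 alone. Strains lacking MSP1 thus shared the low RNA-seq level, and the msp1 deletion had the lowest RPF median. Over all measured genes RPF ratios to wild type rose with coding length in the msp1 deletion (Spearman 0.312) and in the pex19 deletion (0.207). How far that trend enters their RPF list medians was not tested. In the double deletion the RNA-seq ratio also rose weakly with coding length (Spearman 0.13). How much of its RNA-seq list medians goes with that trend is not given here. Single ribosomal protein genes with near-identical copies, such as RPL4A at −0.75 and −0.43, are uncertain. Ribosome biogenesis genes, 64 of 66 measured, had 17 above wild type in RNA-seq and 22 in RPF, with medians of −0.15 and −0.14; without MSP1 alone these were −0.17 and −0.06, and without PEX19 alone −0.12 and −0.14. Among them ENP2 was at −1.10 and −0.21, EBP2 at −0.50 and −0.47, and REI1, which overlaps SLM6, at 0.81 and 0.33. The PAC element, searched as GATGAG on both strands, was in 62 of these 64 windows (96.9%) and in 19.4% of windows of measured genes. Translation factor genes, 38 of 39 measured, had medians of −0.13 and −0.07, with −0.08 and −0.26 for loss of MSP1 alone and −0.01 and −0.07 for loss of PEX19 alone.

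**Figure D5:**
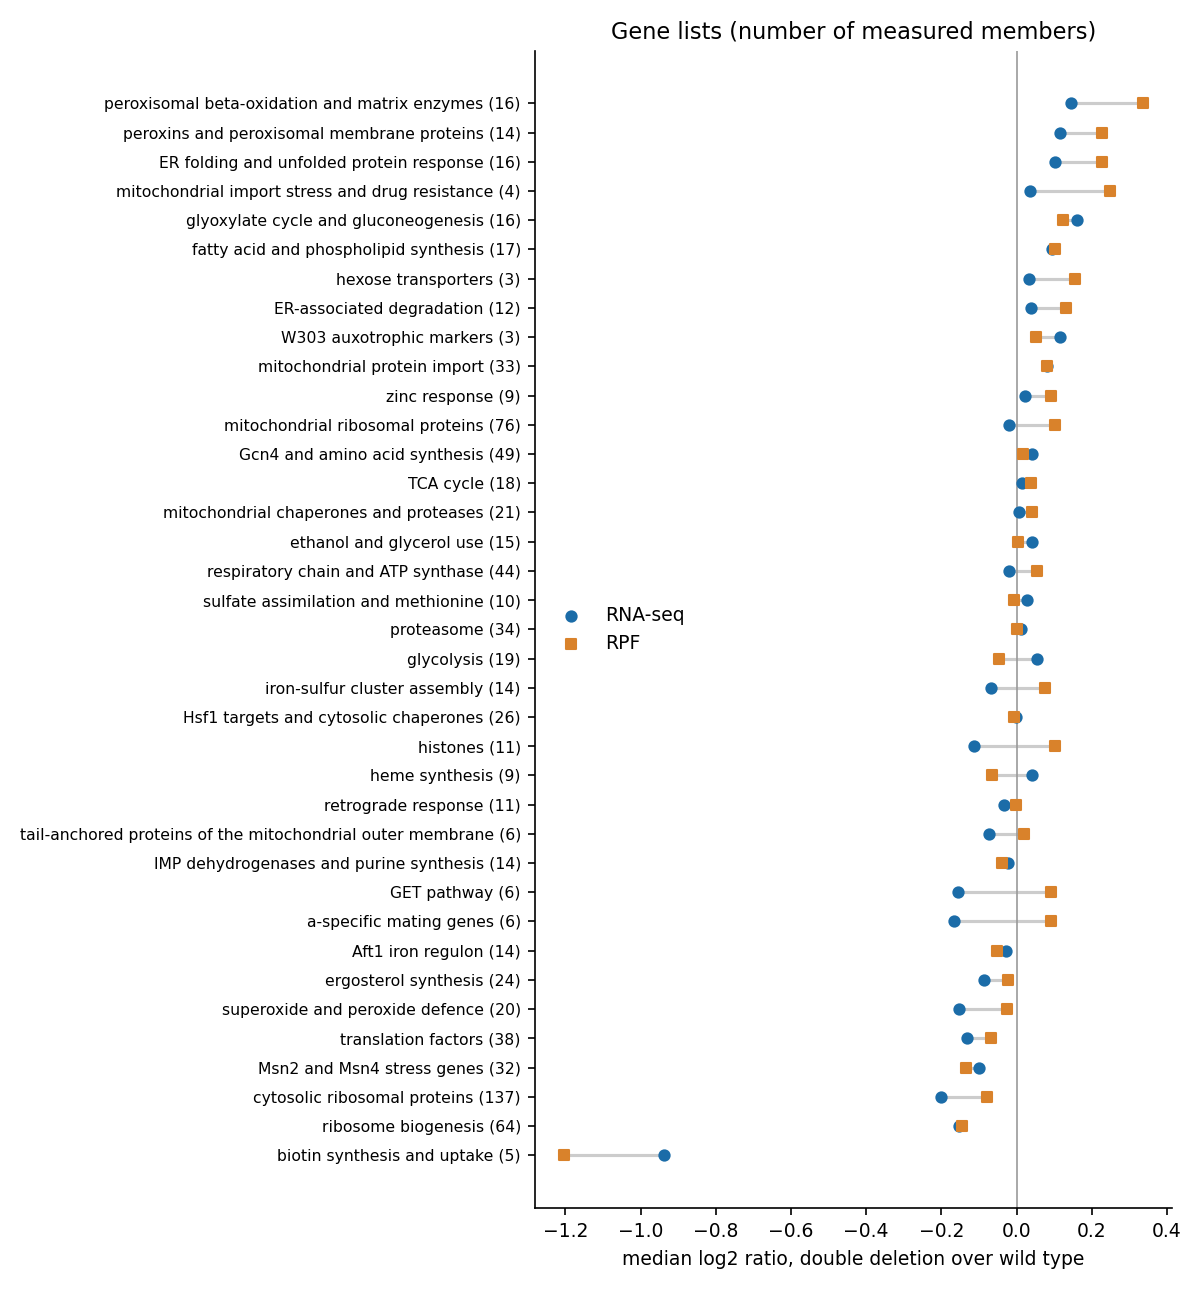
Median log2 ratio, double deletion over wild type, of the measured members of each gene list with at least 3 (number in brackets); circles are RNA-seq and squares RPF. Biotin synthesis and uptake stood far below the other lists, at −0.94 and −1.20, and 35 of 37 RNA-seq and 32 of 37 RPF medians lay within 0.2 of 0.

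Most other metabolic lists held no shift beyond 0.2. Zinc-responsive genes, 9 of 13 measured, had medians of 0.02 and 0.09 in the double deletion. The same list had medians of 0.53 and 0.79 without MSP1 alone, and of −1.13 and −0.14 without PEX19 alone, against the same wild-type libraries. HEF3 and ZPS1 passed the RPF minimum only through the msp1 deletion, with 154 and 207 reads there and at most 45 in any other strain. That filter favours high values in the msp1 deletion, so its medians are no separate evidence. HEF3 was also the middle gene of the list in the double deletion. ZPS1, a cell surface protein made at low zinc, was at −0.58 and 0.03, and the zinc regulator gene ZAP1 at 0.18 and 0.20. ZRG17, of a zinc transporter of the endoplasmic reticulum, was at 0.43 and 0.55, IZH1 at 0.28 and 0.36 and the alcohol dehydrogenase gene ADH4 at −0.27 and −0.41. The zinc transporter genes ZRT1, ZRT2 and ZRT3 were at −0.14 and −0.19, 0.06 and 0.22, and −0.01 and −0.03, and HEF3 at 0.02 and 0.09. Sulfate assimilation and methionine genes, 10 of 23 measured, had medians of 0.03 and −0.01. Among them MET13 was at 0.37 and 0.17, MET5 at 0.15 and −0.37, CYS4, cystathionine β-synthase, at −0.28 and −0.22 and SAM1, an S-adenosylmethionine synthetase, at −0.26 and −0.485. CYS3, SAM2, MET6, MET12, MUP1 and STR2 lay between −0.17 and 0.18 in both assays. Of 16 hexose transporter genes 3 were measured, HXT6 at 0.31 and 0.16, HXT5 at −0.13 and −0.04 and SNF3 at 0.03 and 0.26; HXT6 has a near-identical copy, HXT7, so its value is uncertain. Amino acid synthesis genes under Gcn4, 49 of 54 measured, had medians of 0.04 and 0.02, and ergosterol synthesis genes −0.09 and −0.02. Fatty acid and phospholipid synthesis genes, 17 of 19 measured, had medians of 0.09 and 0.10, with INO1, inositol phosphate synthase, at 0.34 and 0.27 and OLE1, the fatty acid desaturase, at 0.25 and 0.21. ACC1, the acetyl-CoA carboxylase that carries biotin, was at 0.17 and 0.11, and PYC1, a pyruvate carboxylase, at 0.15 and 0.03. Defence genes against superoxide and peroxide, 20 of 23 measured, had medians of −0.15 and −0.02, with CTA1 the highest.

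Markers of mating type and strain background were not 2-fold apart. Of the a-specific mating genes 6 of 7 were measured, with medians of −0.17 and 0.09; MFA1, an a-factor precursor, was at −0.68 and −0.04, MFA2 at 0.02 and 0.09, AGA2 at −0.36 and −0.21, STE2 at −0.19 and 0.19, STE6 at −0.15 and 0.19 and BAR1 at 0.00 and 0.09. The α-factor gene MF(ALPHA)1 was at 0.29 and −0.48. Of 6 auxotrophic marker genes of W303 LEU2 was at 0.12 and 0.15, ADE2 at −0.39 and −0.14 and CAN1 at 0.14 and 0.05, and 3 were under the count minimum.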

How the data were processed

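Total RNA depleted of ribosomal RNA and ribosome-protected fragments were sequenced, with 1 library of either kind per genotype. The authors trimmed reads with cutadapt 1.8 and aligned with STAR 2.5 to sacCer3 (R64), as far as the submitters' processing notes name tools; those notes name no counting tool and no strand setting. The deposited read counts per gene, headed as reads per the file headers, were the input of every value; the lowest count listed is 1, and whether 1 was added to all counts or to empty genes only is not stated. The TPM, RPM and RPKM columns deposited by the authors were not used. Blank lines at the end of the double deletion's files, 2 in each, were dropped.

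TMM factors (edgeR 4.0.16, R 4.3.3) were computed within an assay from genes averaging 50 or more counts in it. Before log2 ratios were taken, 1 read, scaled by library size, was added as pseudocount; ratios have exact (Clopper-Pearson) conditional binomial 95% intervals; intervals of translational efficiency are Poisson intervals on the log scale. Positions and sequences come from the RefSeq R64 reference, which held 3735 of the 3737 measured genes. Near copies were sought by blastn 2.17.0 (at least 90% identity over 100 nt); the treatment of reads they share is not stated. Other scalings, pseudocounts, count minimums and call limits and removal of a coding length trend were tried. Calculations were checked on simulated counts.

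Genes were named by rule: the deleted genes with 2 neighbours on each side; genes past 2-fold in both assays; the 15 highest and 15 lowest by the smaller ratio; per assay and in efficiency the 5 highest and 5 lowest by interval bound; and all members of lists of up to 10 measured genes, or the 2 highest and 2 lowest of longer ones. Of these highest and lowest members of longer lists only some are printed. Further list members are named for their place in a pathway, chosen after their values were seen. Members and lists were chosen with earlier results of these data known.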

Additional observations from a re-analysis of the deposited data

How the results depend on the processing

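No paired analysis was possible because each genotype has 1 library per assay, and no replicate could be left out. BIO2, BIO4 and FET3 were 2-fold lower in both assays under every scaling, pseudocount and count minimum tried and after removal of the coding length trend. With TMM over all listed genes 1 gene was higher in RPF and 0 in both assays, as IMD2 stood at 0.94 in RPF, while ERV1 and SPS100 joined the genes lower in both; this scaling moved the RPF median of all genes by −0.0675. A pseudocount of 5 likewise gave 1 higher in RPF and 0 in both (IMD2 at 0.95) and left NCA3 at −0.99 in RNA-seq. With the count minimum at 10 there were 21 higher and 23 lower in RNA-seq, 41 and 31 in RPF, 99 and 74 in translational efficiency, and 2 higher in both assays, PET18 with IMD2; BIO5 joined those lower. With the minimum at 200 there were 3 and 4 in RNA-seq, 0 and 4 in RPF, 0 and 2 in efficiency, and 0 higher in both. No count minimum gave 308 and 173, 117 and 74, 318 and 335, and 16 higher and 10 lower in both. A limit of 1.5-fold, chosen after seeing the data, gave 33 and 52, 67 and 50, 155 and 104, and 5 and 13. No ratio of a named gene past 2-fold changed sign under the other scalings and pseudocounts or after removal of the length trend. The largest move of the median of all genes was the −0.0675 above, too small to reverse such a value, so this is no separate support. Among named genes the values of ERV1, SAM35, SPS100, IMD2, NCA3, FAT3 and YPT6 crossed the 2-fold limit under at least 1 of these settings. List medians changed sign only close to 0: TMM over all listed genes brought the RPF median of the respiratory list to −0.01, of the TCA cycle to −0.03, of mitochondrial chaperones to −0.03, of tail-anchored proteins to −0.05, of the proteasome to −0.07 and of Gcn4 targets to −0.05, and removal of the length trend brought the RNA-seq medians of the respiratory list and of mitochondrial ribosomal proteins to 0.03 and 0.04. Depth limits the RPF ratios: 1553 genes read well enough in RNA-seq were under the minimum in RPF.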

Other observations

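Of the 1553 genes that passed the count minimum in RNA-seq alone, 20 were at least 2-fold higher in the double deletion than in wild type (1.29%) and 17 lower (1.09%); these values have no usable RPF counterpart. The highest and the lowest of them are neighbours that point away from each other on chromosome X. LOH1 (YJL038C, 375115 to 375774, minus strand) had 172 RNA-seq reads in the double deletion, 11 in the msp1 deletion, 60 in the pex19 deletion and 17 in wild type, a log2 ratio to wild type of 3.38 (2.74 to 4.27). IRC18 (YJL037W, 376662 to 377336, plus strand) had 51 in the double deletion, 85 in the msp1 deletion, 83 in the pex19 deletion and 241 in wild type, a ratio of −2.10 (−2.58 to −1.68). Neither gene had more than 3 RPF reads in the double deletion or in wild type. The count minimum is a mean that includes the double deletion, which favours genes read more there. Without that strain LOH1 is under the minimum, as are others of the 20, so their count is no separate evidence.

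YGL081W had 343 RNA-seq reads in the double deletion, 54 in the msp1 deletion, 21 in the pex19 deletion and 64 in wild type, a ratio of 2.52 (2.16 to 2.95), with 14 RPF reads in the double deletion and 21 in wild type. Without the double deletion YGL081W too is under the count minimum. SPO1, a meiosis-specific phospholipase homologue, had 433 RNA-seq reads in the double deletion and 167 in wild type, a ratio of 1.49 (1.24 to 1.76), with 10 and 8 RPF reads. MET2, homoserine acetyltransferase of methionine synthesis, was at −1.32 (−1.86 to −0.85). SLM2, a regulator of actin and stress signalling that acts with TORC2, was at 0.05 in RNA-seq and −1.15 in RPF, among the 9 genes 2-fold lower in RPF. These genes were chosen after their values were seen, and near copies were not sought for them.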
